A study of Homo sapiens with 4 samples.

Results

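The unfolded protein response and the chaperones of the endoplasmic reticulum (ER) were followed here in the Ca9-22 line, established from a gingival squamous cell carcinoma, as 34 genes among the 19550 genes tested. The genes were taken from a named list, and 41 array probes have a RefSeq transcript of one of them. The brightest probe of each gene, 34 in all, gave its value and call, and the other probes are reported beside it. By role, 15 genes are ER chaperones and folding enzymes, 8 act in ER-associated degradation (ERAD) or translocation, 4 are stress sensors or the transcription factors they control directly, and 7 belong to the branch of the transcription factor ATF4. The rule for the list used gene names only, but the genes and their roles were chosen with earlier results of these data known. Of the 34 genes, 33 were well above background on all 4 arrays.

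Proteins that enter the secretory pathway fold in the ER with the help of chaperones, and those that fail to fold are returned to the cytosol and degraded. When unfolded proteins accumulate, the sensors IRE1α (gene ERN1), PERK (gene EIF2AK3) and ATF6 are activated. IRE1α splices the XBP1 mRNA, ATF6 is released from its membrane anchor, and both factors induce chaperone and ERAD genes, whereas PERK phosphorylates eIF2α, which lowers translation in general and raises that of ATF4. ATF4 then induces genes of amino acid supply, of redox balance and of stress-linked cell death, and it is also reached by other kinases of eIF2α that sense other stresses.

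To compare cells with and without KPNA4, the nuclear import receptor karyopherin α4, total RNA was taken from 2 negative control and 2 KPNA4 knockdown cultures of Ca9-22, grown in DMEM with fetal bovine serum and antibiotics. The sample labels name siRNA and a harvest 3 days after transfection, whereas the text of the paper describes short hairpin RNA, so the reagent is not settled. Both groups share the parent line and the culture medium, and the model is 1 cell line. The arrays were 1-color Agilent whole human genome arrays on 1 slide, 1 array for each culture, and the series text calls the 2 arrays of a group biological replicates without saying how the cultures were separated.

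All values below are log2 of the background-subtracted signal relative to the 75th percentile of its array, so 0 is that percentile and a difference of 1 is a 2-fold change. A gene was called higher or lower where limma gave a Benjamini-Hochberg adjusted p under 0.05 over all genes tested. The 75th percentile itself ranged from 1381 to 1466 in the controls and from 1938 to 2096 after knockdown, so every direction is relative to it: the median gene lay at -0.10 after this scaling and at 0.40 without any scaling. Leaving the scaling out adds the same amount to the log2 fold change of every gene measured on all 4 arrays. The unscaled values below therefore show only where 0 would lie, and are not a separate check of any gene. The targeted gene KPNA4 read 4.02 and 4.03 in the controls and 2.36 and 2.05 after knockdown. Its log2 fold change was -1.82, with a standard error (SE) of 0.12 and a limma adjusted p of 0.00183, and it was -1.32 without scaling. All 8 markers of squamous epithelium were detected above background on every array, and their scaled signals summed to 75.9 to 77.3 in the controls and 90.5 to 91.1 after knockdown. Of 4 fibroblast markers 3 were above background on all arrays (sums 0.135 to 0.139 in the controls, 0.318 to 0.335 after knockdown), of 4 leukocyte markers 2 were (4.14 to 4.20, then 5.84 to 6.18), and of 3 endothelial markers 2 were (0.0873 to 0.0934, then 0.0622 to 0.0656). PECAM1, 1 of the 3 endothelial markers, was above background on no array. The part of these shifts in the results below was not tested.

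Of the 34 genes, 6 were called higher after KPNA4 knockdown and 9 lower, and 19 were not called. Among all genes tested, 20.3% were called higher, 29.5% lower and 49.8% in either direction, so the shares of 17.65% higher and 26.47% lower in the list stood near the background. The changes were also small. The log2 fold change was within 0.5 of 0 for 30 of the 34 genes, against 70.8% of all genes. Past 2-fold were 8.9% of all genes and, in the list, only the fitted value of ERN1. That gene was tested because both control arrays detected it, and 1 of its 2 knockdown arrays was not well above background, so its fold is uncertain. The median over the list was -0.02, which is above the median gene, and 20 of the 34 genes lay above it. Control and knockdown arrays did not overlap for 28 of the 34 genes, against 79.8% of all genes. The genes called higher were HSPA5, PDIA3, HERPUD1, SEL1L, WFS1 and EIF2AK3, and those called lower were CALR, HYOU1, XBP1, ERN1, ATF6, DDIT3, PPP1R15A, ASNS and CHAC1. Without scaling every gene of the list moved up by the same amount, so all 6 higher genes necessarily stayed above 0. Of the 9 lower genes 6 were above 0 there, and ERN1, PPP1R15A and CHAC1, which had the largest falls, stayed below it. With each array left out in turn, 4 of the 15 calls were kept every time, those of HERPUD1, PPP1R15A, CHAC1 and ERN1, the last with a probe near background and a log2 fold change of 1.11 under normexp. When knockdown replicate 1 or knockdown replicate 2 was left out, these 4 were the only genes of the list called.

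**Figure D1:**
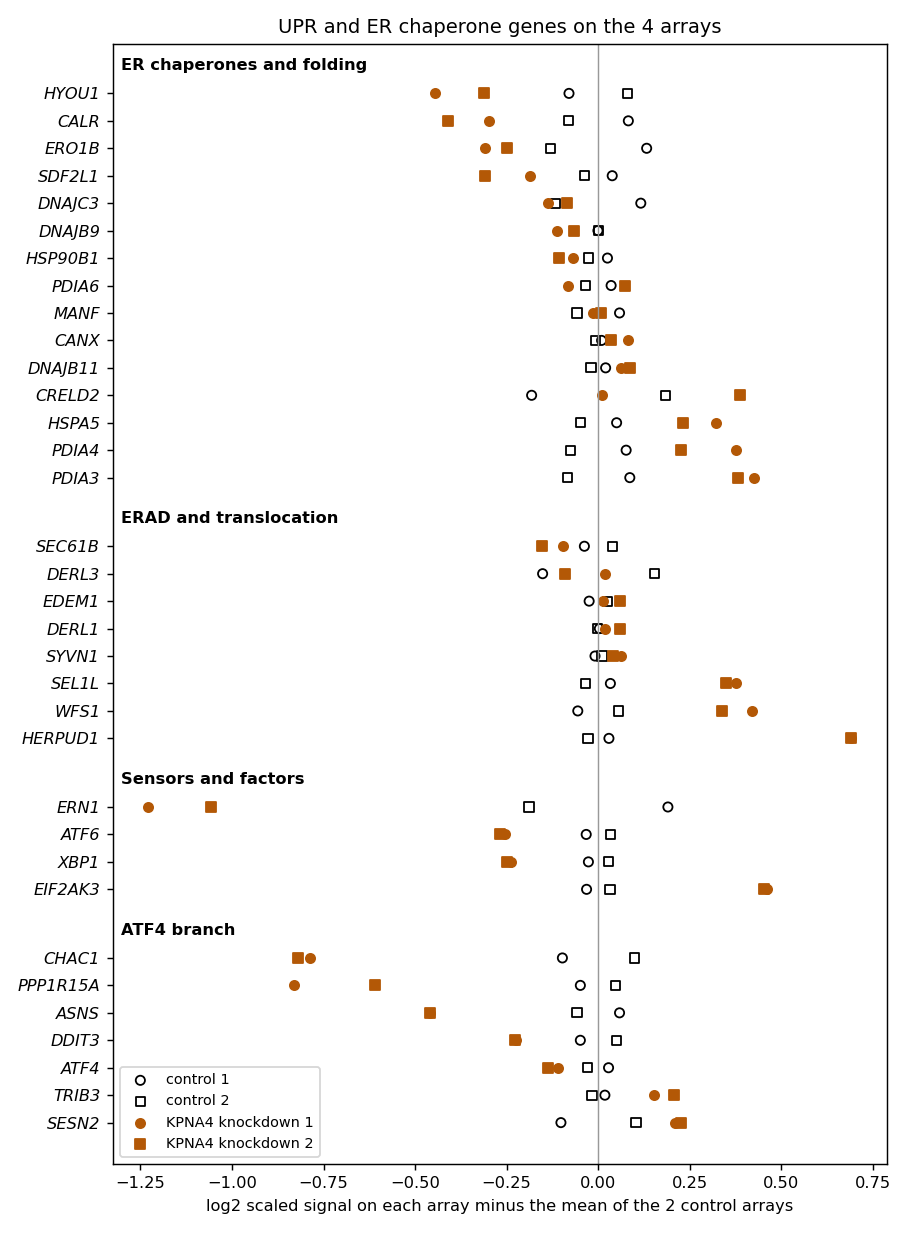
Each gene on each of the 4 arrays, as its log2 scaled signal minus the mean of the 2 control arrays (x axis, log2 units), grouped by role. Open marks are the control arrays and filled marks the KPNA4 knockdown arrays. HERPUD1 lies to the right of its controls by 0.69, and ERN1, CHAC1 and PPP1R15A lie farthest to the left, at -1.14, -0.80 and -0.72.

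Stress-responsive genes of this pathway carry short DNA elements near their start. These elements group the genes by sequence and not by expression, and stretches are printed for some of the genes that hold one. RefSeq promoters of GRCh38.p14, from 250 bases before the transcript start to 50 bases from it on, were found for 31 of the 34 genes, and PDIA3, DERL1 and DERL3 had no entry in the table used. Both strands were searched for 4 sets of letters: the ER stress element ERSE (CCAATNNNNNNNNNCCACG), ERSE-II (ATTGGNCCACG), the C/EBP-ATF element read by ATF4 (TGATGNAA) and the core of the unfolded protein response element UPRE (TGACGTGG). Capitals mark the matches, and each stretch is read 5′ to 3′ along the gene's own strand.

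ERSE was matched in 8 genes of the list: HSPA5, HSP90B1, CALR, CANX, PDIA6, CRELD2 and ERO1B among the 14 chaperone and folding genes with a promoter, and XBP1 among the 4 sensors and factors. The same letters were found in 25 of the 27305 genes of the promoter table (0.0916%). No ERAD or ATF4 branch gene held them in this window. The stretches printed lie at chr9:125241371-125241429 on the minus strand (HSPA5), chr12:103930196-103930359 on the plus strand (HSP90B1, with 2 matches), chr19:12938364-12938422 on the plus strand (CALR) and chr22:28800583-28800641 on the minus strand (XBP1), all upstream of the transcript start.
HSPA5: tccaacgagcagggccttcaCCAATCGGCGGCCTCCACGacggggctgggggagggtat
HSP90B1: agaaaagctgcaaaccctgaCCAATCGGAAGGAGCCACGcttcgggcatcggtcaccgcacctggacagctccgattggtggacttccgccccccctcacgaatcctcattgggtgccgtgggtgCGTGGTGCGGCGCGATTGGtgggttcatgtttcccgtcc
CALR: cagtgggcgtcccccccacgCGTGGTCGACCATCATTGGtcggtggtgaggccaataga
XBP1: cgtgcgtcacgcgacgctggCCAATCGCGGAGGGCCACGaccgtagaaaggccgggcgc

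ERSE-II was matched in HYOU1, SDF2L1 and HERPUD1, and in 19 genes of the whole table (0.0696%). HYOU1 held it at 2 places, and the match farther from the start overlapped the only UPRE core of the list, a set of letters that 253 genes held (0.927%). The C/EBP-ATF element was matched in ASNS and CHAC1, which are 2 of the 7 ATF4 branch genes, and in HERPUD1, and 1217 genes of the table held it (4.46%). The stretches lie at chr11:119057254-119057413 on the minus strand (HYOU1), chr16:56931946-56932055 on the plus strand (HERPUD1, first the C/EBP-ATF element and then ERSE-II), chr7:97872449-97872496 on the minus strand (ASNS) and chr15:40953242-40953289 on the plus strand (CHAC1).
HYOU1: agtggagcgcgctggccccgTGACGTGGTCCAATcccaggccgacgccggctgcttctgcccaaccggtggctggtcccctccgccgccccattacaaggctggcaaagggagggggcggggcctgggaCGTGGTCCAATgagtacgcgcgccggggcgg
HERPUD1: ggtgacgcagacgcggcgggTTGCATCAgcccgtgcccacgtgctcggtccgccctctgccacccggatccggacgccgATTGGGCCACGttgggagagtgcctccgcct
ASNS: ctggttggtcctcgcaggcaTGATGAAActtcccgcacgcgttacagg
CHAC1: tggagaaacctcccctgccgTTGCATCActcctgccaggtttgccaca

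Of the 11 genes with an ERSE or ERSE-II match, 2 were called higher (HSPA5 and HERPUD1), 3 lower (CALR, HYOU1 and XBP1) and 6 were not called, beside 20.3% higher and 29.5% lower among all genes tested, with log2 fold changes from -0.38 to 0.69 and a median of -0.09. Of the 3 genes with the C/EBP-ATF element, HERPUD1 was called higher and ASNS and CHAC1 lower. A match is a description of the sequence and not evidence that a factor bound there in these cells.

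**Figure D2:**
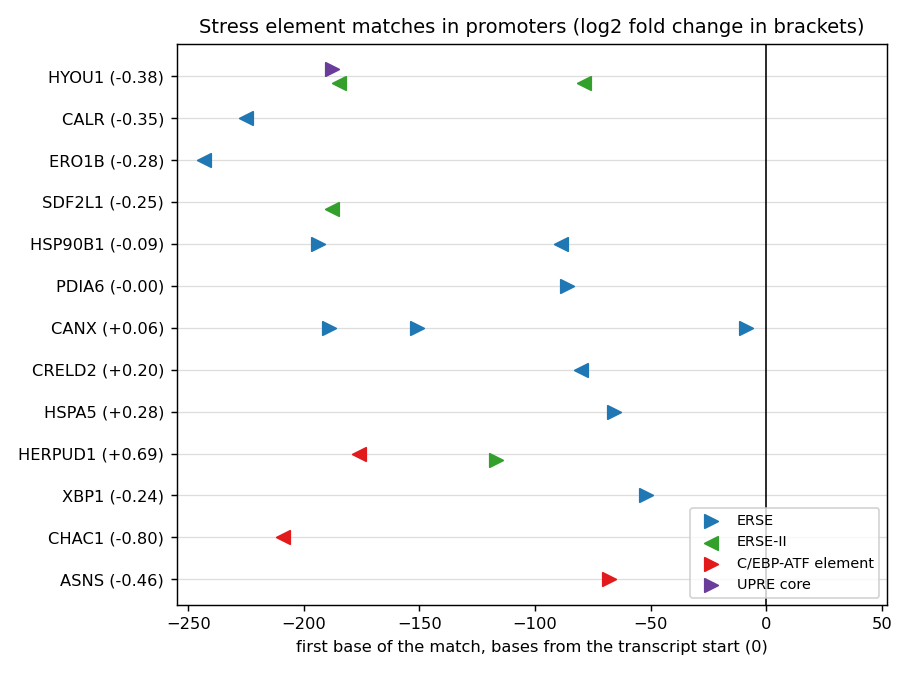
Position of each match (x axis, bases from the transcript start at 0) in the 13 genes of the list that hold one, with the log2 fold change of each gene in brackets. Arrowheads point right for a match on the gene's strand and left for one on the opposite strand, and the 3 marks of CANX are 1 match measured from 3 annotated starts.

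Of the 15 ER chaperones and folding enzymes, 2 were called higher (HSPA5 and PDIA3), 2 lower (CALR and HYOU1) and 11 were not called. These shares, 13.33% in each direction, stand beside 20.3% higher and 29.5% lower among all genes tested. The group had a median log2 fold change of -0.004 against -0.10 over all genes tested, and all 15 genes lay within 0.5 of 0. Without scaling the median was 0.50, beside 0.40 over all genes, and 11 of the 15 were called higher, in a fit that called 57.6% of all genes higher. HSPA5 encodes BiP, the ER chaperone of the Hsp70 family that also keeps the sensors inactive. Its values were 0.02 and -0.08 in the controls and 0.29 and 0.20 after knockdown. Both knockdown arrays were above both controls, and the log2 fold change was 0.28 (SE 0.07, limma adjusted p = 0.0389), a rise of 21.1%. With any 1 of the 4 arrays left out the value stayed between 0.23 and 0.33, but the call was lost (adjusted p from 0.0538 to 0.191). Its cochaperone HYOU1, which exchanges the nucleotide of BiP, had -1.38 and -1.22 in the controls and -1.75 and -1.62 after knockdown. The groups did not overlap, and the log2 fold change was -0.38 (SE 0.09, limma adjusted p = 0.0321), but 0.12 without scaling. Leaving out any 1 array, the HYOU1 value ran from -0.46 to -0.30, but the call was lost without control replicate 2 or either knockdown replicate.

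The lectin chaperones calreticulin and calnexin and their partner PDIA3, which together fold glycoproteins, did not move as a unit. Calreticulin (CALR) had 6.40 and 6.24 in the controls and 6.02 and 5.91 after knockdown. It was lower on both knockdown arrays, with a log2 fold change of -0.35 (SE 0.09, limma adjusted p = 0.0353), and was at 0.15 without scaling and at -0.11, not called, under quantile normalization (limma adjusted p = 0.261). Calnexin (CANX), the membrane-bound relative, had 0.48 and 0.46 and then 0.55 and 0.50, a difference of 0.06 whose 95% interval ran from -0.10 to 0.22. PDIA3, the disulfide isomerase that both recruit, had 3.25 and 3.08 in the controls and 3.59 and 3.54 after knockdown, with no overlap and a log2 fold change of 0.40 (SE 0.08, limma adjusted p = 0.0217). The other probe of PDIA3 rose further, by 0.78 (limma adjusted p = 0.00236 over all probes), and the other probe of CANX differed by 0.19 (adjusted p = 0.0596). The calls of CALR and PDIA3 were lost without knockdown replicate 1 or 2, and that of CALR also without control replicate 1 (adjusted p = 0.0861).

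The other isomerases and BiP cochaperones gave no call. PDIA4, an isomerase with its own BiP association, had 1.65 and 1.496 in the controls and 1.95 and 1.80 after knockdown, a difference of 0.30 with an interval from 0.05 to 0.56 and a limma adjusted p of 0.0577, and it was called higher under quantile normalization (0.36, adjusted p = 0.0352). SDF2L1, a partner of the cochaperone DNAJB11, had 6.15 and 6.07 and then 5.92 and 5.80, a difference of -0.25 (limma adjusted p = 0.0543) that was 0.25 without scaling. Under quantile normalization the SDF2L1 difference was only -0.01 (limma adjusted p = 0.889). For both genes the knockdown arrays lay on 1 side of both controls, and both were called with limma's trend and robust fitting (adjusted p = 0.0225 and 0.0174). The cochaperones DNAJB9, DNAJB11 and DNAJC3, which pass clients to BiP, differed by -0.09, 0.07 and -0.11, and PDIA6 by -0.004. HSP90B1, the ER member of the Hsp90 family, differed by -0.09, and its other probe by -0.22 (limma adjusted p = 0.0565 over all probes). MANF, a stress-induced secreted factor, differed by -0.004 with an interval from -0.19 to 0.19. CRELD2, another stress-induced ER gene, had the widest spread of the list, with 2.42 and 2.78 in the controls and 2.61 and 2.98 after knockdown, and its interval ran from -0.33 to 0.73. ERO1B, an oxidase that recharges the isomerases, differed by -0.28 (limma adjusted p = 0.101) and by 0.22 without scaling.

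Among the 8 ERAD and translocation genes, 3 were called higher, HERPUD1, SEL1L and WFS1, and none was called lower, beside 20.3% and 29.5% of all genes tested. The remaining 5 lay between -0.13 and 0.05, and the group median was 0.05. HERPUD1, a membrane protein that organizes the HRD1 ubiquitin ligase complex, had 2.24 and 2.18 in the controls and 2.90 on both knockdown arrays. Both knockdown arrays were above both controls, with a log2 fold change of 0.69 (SE 0.06, limma adjusted p = 0.00299), a rise of 61.4%. Leaving out any 1 array, the value ran from 0.66 to 0.72 and the adjusted p from 0.0142 to 0.0263. SEL1L, the adaptor of HRD1, had -0.14 and -0.20 in the controls and 0.21 and 0.18 after knockdown. Its arrays did not overlap (log2 fold change 0.36, SE 0.06, limma adjusted p = 0.0133), and its other 2 probes rose too, by 0.77 and 0.32 (limma adjusted p = 0.00913 and 0.0283 over all probes).

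WFS1 encodes wolframin, an ER membrane protein that is mutated in Wolfram syndrome. It had -0.65 and -0.54 in the controls and -0.18 and -0.26 after knockdown, with no overlap and a log2 fold change of 0.38 (SE 0.07, limma adjusted p = 0.0186). The calls of SEL1L and WFS1 were lost without knockdown replicate 1 or 2, and that of WFS1 also without control replicate 1 (adjusted p = 0.0509). SYVN1, the HRD1 ligase itself, differed by 0.05 with an interval from -0.10 to 0.20, and was not called. EDEM1, which marks misfolded glycoproteins for degradation, differed by 0.04 (interval -0.13 to 0.20), and the derlins DERL1 and DERL3, membrane components of the same exit route, by 0.04 and -0.04. The other DERL3 probe was above background on no array. SEC61B, a subunit of the translocon, differed by -0.13 (limma adjusted p = 0.177) and by 0.38 without scaling.

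**Figure D3:**
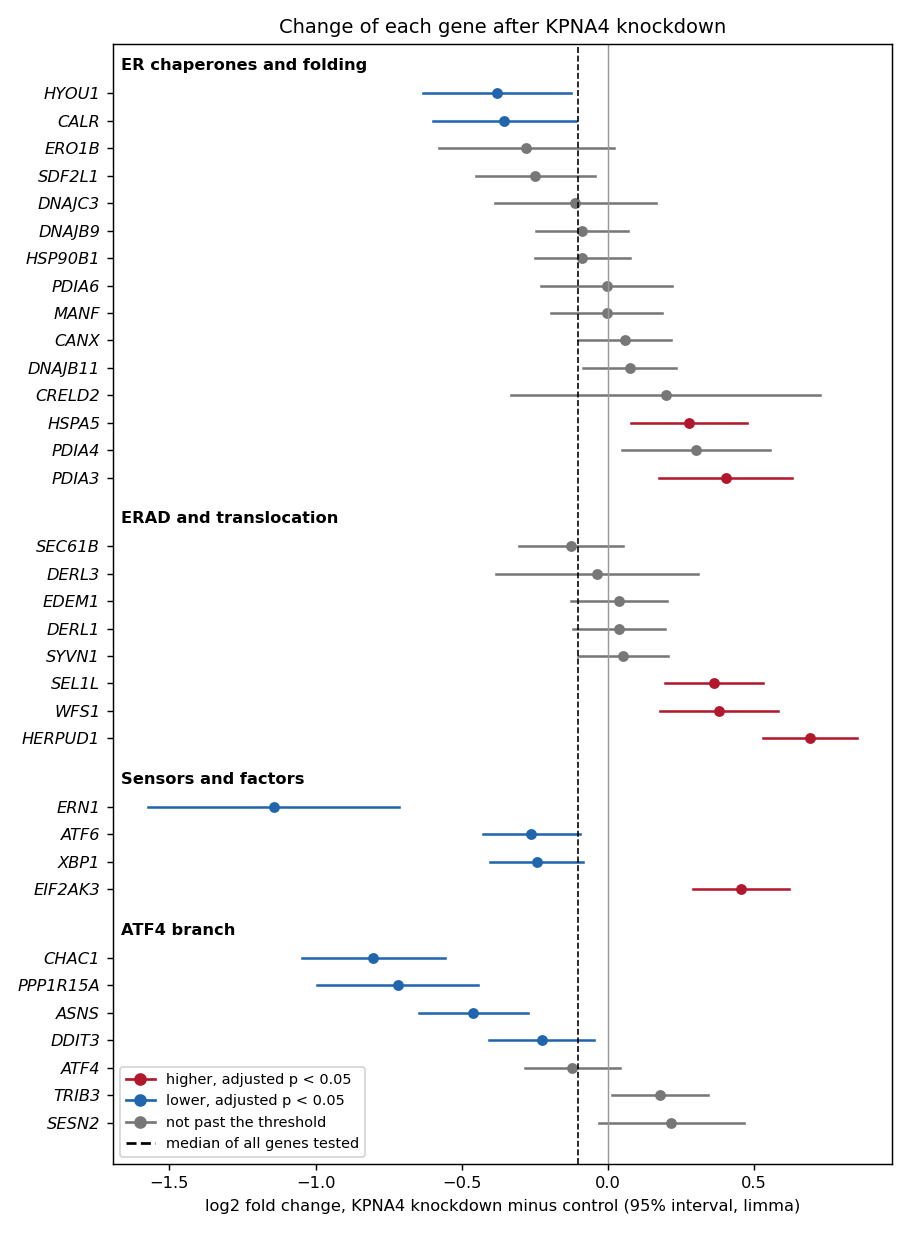
Log2 fold change of each gene, KPNA4 knockdown minus control (x axis), with its 95% interval from limma, ordered within each role. Red is higher and blue lower at an adjusted p under 0.05, gray is not past it, and the dashed line is the median of all genes tested at -0.10. HERPUD1 at 0.69 is farthest to the right and ERN1 at -1.14 farthest to the left.

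The sensors did not move together. EIF2AK3, the kinase PERK, had -3.15 and -3.08 in the controls and -2.65 and -2.66 after knockdown. It was higher on both knockdown arrays, with a log2 fold change of 0.46 (SE 0.06, limma adjusted p = 0.00757). ATF6, the sensor that becomes a transcription factor once cleaved, had 1.82 and 1.89 and then 1.60 and 1.59, and XBP1, the substrate of IRE1α, had 4.56 and 4.61 and then 4.35 and 4.33. For both, the 2 knockdown arrays lay close together and below both controls, with log2 fold changes of -0.26 (SE 0.06, limma adjusted p = 0.0282) and -0.24 (SE 0.06, limma adjusted p = 0.0314), whereas without scaling they were at 0.24 and 0.26. Neither was called under quantile normalization, which gave -0.20 for ATF6 (adjusted p = 0.0593) and -0.11 for XBP1 (adjusted p = 0.2). The position of the XBP1 probe relative to the spliced bases is not given in the sources used here, so the value is that of XBP1 mRNA and not of splicing, and the arrays do not measure cleavage of ATF6 or phosphorylation of PERK.

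ERN1, the gene of IRE1α, was the only one of the 34 genes not well above background on every array. Its values were -6.08 and -6.46 in the controls and -7.50 and -7.33 after knockdown. The groups did not overlap, and the fitted log2 fold change was -1.14 (SE 0.16, limma adjusted p = 0.00836). It was well above background on both control arrays, through which it entered the test, but on only 1 of the 2 knockdown arrays. The lowest signals counted as above background on those arrays were -7.53 and -7.77, so its size is uncertain, and the log2 fold change was 1.11 when the background was corrected with normexp. The calls of EIF2AK3, ATF6 and XBP1 were lost without knockdown replicate 1 or 2, and those of ATF6 and XBP1 also without control replicate 2.

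The ATF4 branch was called lower in 4 of its 7 genes, DDIT3, PPP1R15A, ASNS and CHAC1, and higher in none, beside 29.5% lower and 20.3% higher among all genes tested. The median log2 fold change was -0.23, which is -0.125 relative to the median of all genes, and -0.174 relative to it under quantile normalization. Without scaling the branch median was 0.28, beside 0.40 over all genes, with 3 genes called higher and CHAC1 called lower. In that fit 57.6% of all genes tested were called higher and 5.36% lower. ATF4 itself, whose activity is set mainly by translation of its mRNA, had 6.40 and 6.35 in the controls and 6.27 and 6.24 after knockdown. The arrays did not overlap, but the difference of -0.12 did not pass the threshold (interval -0.29 to 0.04, limma adjusted p = 0.155) and was 0.38 without scaling. Under quantile normalization the ATF4 difference had the opposite sign, at 0.14, and was not called either (limma adjusted p = 0.13).

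CHAC1, which degrades glutathione, had 0.71 and 0.91 in the controls and 0.02 and -0.01 after knockdown. Both knockdown arrays were below both controls, with a log2 fold change of -0.80 (SE 0.09, limma adjusted p = 0.00529), a change of -42.7%, and it was still called lower without scaling, at -0.30. Its other probe, with -3.96 and -3.90 and then -4.56 and -4.41, fell by 0.56 (limma adjusted p = 0.00927 over all probes). PPP1R15A encodes GADD34, which brings a phosphatase to eIF2α and so reverses the action of PERK. It had -1.01 and -0.91 in the controls and -1.79 and -1.57 after knockdown, a log2 fold change of -0.72 (SE 0.10, limma adjusted p = 0.0088) with no overlap, and -0.22 without scaling, where it was not called. Leaving out any 1 array, CHAC1 ran from -0.90 to -0.70 and PPP1R15A from -0.83 to -0.61.

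ASNS, asparagine synthetase, had 3.93 and 3.81 in the controls and 3.41 on both knockdown arrays. It was lower on both, with a log2 fold change of -0.46 (SE 0.07, limma adjusted p = 0.0101), and was at 0.04 without scaling. DDIT3 encodes CHOP, the factor linked to cell death under lasting stress. It had -1.20 and -1.11 in the controls and -1.38 on both knockdown arrays, and its log2 fold change of -0.23 (SE 0.07) had a limma adjusted p of 0.0485, which became 0.0517 when every probe was tested on its own. Without scaling DDIT3 was at 0.28. The calls of ASNS and DDIT3 were lost without knockdown replicate 1 or 2, and that of DDIT3 also without control replicate 2.

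The other 2 targets of this branch lay above the controls without passing the test. TRIB3, a pseudokinase induced by ATF4 and CHOP, had 4.29 and 4.26 in the controls and 4.43 and 4.48 after knockdown, a difference of 0.18 (interval 0.02 to 0.34, limma adjusted p = 0.0696). It was called higher under quantile normalization (0.32, adjusted p = 0.0233) and with trend and robust fitting (adjusted p = 0.0225). SESN2, a sestrin that restrains mTORC1, had -1.79 and -1.58 and then -1.48 and -1.46, a difference of 0.22 (interval -0.03 to 0.47, limma adjusted p = 0.116). Neither gene's groups overlapped, and SESN2 was called higher without control replicate 2 (0.32, limma adjusted p = 0.0382).

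**Figure D4:**
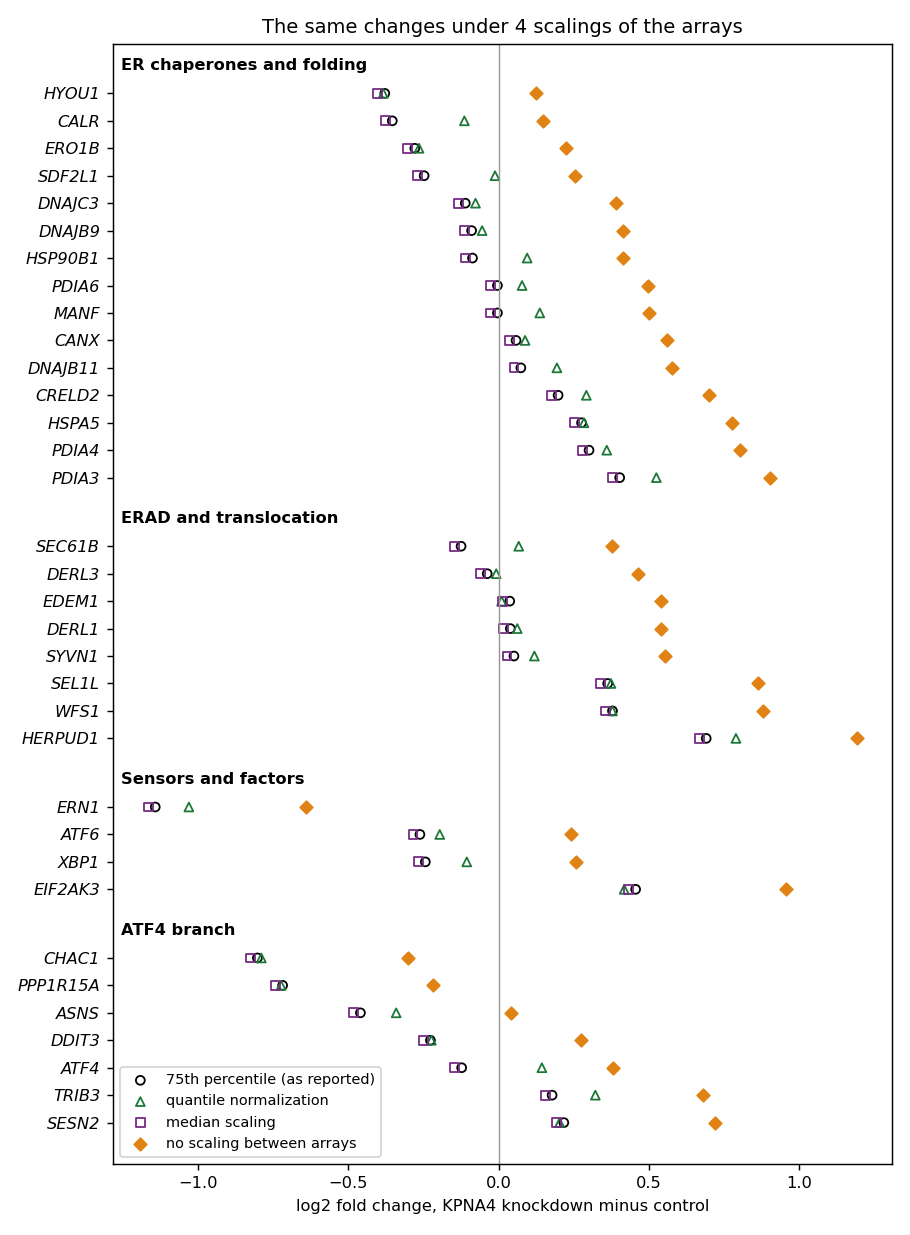
Log2 fold change of each gene (x axis, KPNA4 knockdown minus control) with the arrays scaled to the 75th percentile, by quantile normalization, to the median, and not scaled. The unscaled values lie to the right of the scaled ones throughout, and only ERN1, CHAC1 and PPP1R15A stay below 0 there, at -0.64, -0.30 and -0.22.

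Of 51 other genes of ER folding, export and degradation, 10 were called higher (19.61%) and 11 lower (21.57%), beside 20.3% and 29.5% of all genes tested, with a median of 0.05. These values come from the brightest probe of each gene, and with the mean over its probes 11 were called higher and 9 lower. LMAN1, a cargo receptor between ER and Golgi, rose by 0.75 (limma adjusted p = 0.0057), and CDNF and SEC62 by 0.71 and 0.69. Their signals were dim, with control means of -5.2, -6.1 and -5.2, though well above background on every array. SSR1, a subunit of the translocon-associated complex, had the largest change among the genes called lower (log2 fold change -0.98, limma adjusted p = 0.00195), followed there by EDEM2 at -0.74 and PRKCSH, a glucosidase subunit, at -0.72. All 3 stayed below 0 without scaling, at -0.48, -0.23 and -0.22.

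Of 38 other ATF4 targets, 10 were called higher (26.32%) and 12 lower (31.58%), near the 20.3% and 29.5% of all genes tested, with a median of -0.09. CBS, which condenses serine and homocysteine, was dim, though well above background on every array. It had -5.79 on both control arrays and -3.68 and -3.71 after knockdown. It was higher on both by 2.09 (SE 0.06, limma adjusted p = 0.000414), and NUPR1, a stress-induced nuclear protein, and WARS1, tryptophanyl-tRNA synthetase, rose by 0.68 and 0.51. SLC7A11, the cystine transporter that supplies glutathione synthesis, changed the other way, at -0.71 (limma adjusted p = 0.0038), as did the synthetases GARS1 at -0.59 and YARS1 at -0.59. Without scaling these 3 were at -0.21, -0.09 and -0.09.

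Of 25 further regulators, 24 were tested, with 7 called higher (29.17%), 4 lower (16.67%) and a median of 0.07, beside 20.3% and 29.5% of all genes tested. EIF2S1, which encodes eIF2α itself, rose by 0.66 (limma adjusted p = 0.00626), MBTPS1, the protease that cleaves ATF6 first, by 0.38, and BAK1, a pore-forming death effector, by 0.34. CREB3L1, a membrane-bound factor related to ATF6, was at -0.74 (limma adjusted p = 0.00504) and BCL2L11, the death effector BIM, at -0.73, and both stayed below 0 without scaling, at -0.24 and -0.23. RTCB, the ligase that joins XBP1 mRNA after IRE1α has cut it, was called lower at -0.33 (limma adjusted p = 0.0148) but was at 0.17 without scaling.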

How the data were processed

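Expression was measured in 2 negative control and 2 KPNA4 knockdown cultures of Ca9-22 cells on 1-color Agilent arrays, grouped by the sample labels. The authors deposited Feature Extraction 11.0.1.1 files, in which the processed intensity has the background removed and no scaling between arrays. They also deposited a table of ratios, found here to equal that intensity over the array's 75th percentile. Control spots and outlier spots (333 to 355 of 43118 per array) were dropped, log2 values were averaged over the spots of a probe, and the 75th percentile was subtracted. No gene spot was saturated, and 70.2% to 71.0% of probes per array were well above background. The brightest probe stood for each gene, which was tested if both arrays of either group detected it (19550 genes). RefSeq accessions of GRCh38.p14 named 25771 of 34127 probes. The number of arrays limits the precision, and p-values measure only the spread between these cultures.

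The groups were tested by lmFit and eBayes of limma 3.58.1 (R 4.3.3), with Benjamini-Hochberg adjustment at 0.05. The procedure was also run on simulated data with independent noise, few changed genes and no scale difference between arrays. That run therefore does not check the calls made here. The 34 genes, the roles and the other lists were chosen with earlier results of these data known. Named are all 34 genes with every probe, KPNA4, and the 3 largest called changes in each direction in each of the 3 other lists. For those lists only the brightest probe of a gene is given. Alternatives were scaling to the median, quantile normalization, no scaling, normexp (offset 50, on median and local background intensity), the deposited ratios, other filters, the mean over probes, every probe on its own, trend and robust fitting, blocking by replicate number, leaving out each array, and a threshold of 0.01. Deviations from the group means of samples with the same replicate number had a correlation of -0.03, so the numbers were not taken to pair the cultures. A planned comparison of protein sequences was not run, and a single marker gene is not reported here.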

Additional observations from a re-analysis of the deposited data

How the results depend on the processing

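As reported, the chaperones had 2 genes higher and 2 lower, the ERAD genes 3 and 0, the sensors 1 and 3 and the ATF4 branch 0 and 4. Median scaling, the deposited ratios, the mean over probes and the filter for all 4 arrays kept these counts within 1.5-fold, and the last left ERN1 untested. Without scaling the higher and lower counts were 11 and 0 for chaperones, 8 and 0 for ERAD, 1 and 1 for sensors and 3 and 1 for the ATF4 branch, with medians of 0.50 for chaperones and 0.28 for the ATF4 branch. Genes called in either fit turned from below to above 0 there in 14 cases: HSP90B1 (0.42), CALR (0.15), PDIA6 (0.50), DNAJB9 (0.41), DNAJC3 (0.39), HYOU1 (0.12), MANF (0.50), DERL3 (0.47), SEC61B (0.38), XBP1 (0.26), ATF6 (0.24), ATF4 (0.38), DDIT3 (0.28) and ASNS (0.042). Over all genes, the called genes that were higher made up 40.8% as reported, 47.1% with quantile normalization and 91.5% without scaling, where 57.6% of genes were called higher and 5.36% lower. With normexp, 0 of 19550 genes were called by limma (1162 at an unadjusted p under 0.05), so every count was 0, the medians were -0.15 and -0.34, and ERN1 (1.11) and DDIT3 (0.069) turned. Quantile normalization gave 1 chaperone lower, 1 sensor lower and 1 ATF4 branch gene higher (CALR, XBP1 and ATF6 lost, PDIA4 and TRIB3 gained), and limma's trend and robust options also gave 1 ATF4 branch gene higher (TRIB3). Without a filter on dim probes the chaperones had 0 higher and 0 lower and the sensors 1 lower, and HSPA5, CALR, PDIA3, HYOU1, XBP1, ATF6 and DDIT3 lost their calls at the same log2 values (adjusted p from 0.0541 to 0.0946). At a threshold of 0.01 the counts were 0 and 0 for chaperones, 1 higher for ERAD, 1 higher and 1 lower for sensors and 2 lower for the ATF4 branch. With every probe on its own the ATF4 branch median was -0.34. With the replicate number as a block 1 chaperone was higher and 1 sensor lower, 5 genes of the list were higher and 6 lower, the calls of HSPA5 (adjusted p = 0.0601), XBP1, ATF6 and DDIT3 were lost, and no other call of the 34 changed. With each array left out, chaperones had 0 to 1 higher and 0 to 2 lower, ERAD 1 to 3 higher, sensors 0 to 1 higher and 1 to 3 lower, and the ATF4 branch 0 to 1 higher and 2 to 4 lower. The chaperone median then ran from -0.07 to 0.02 and the ATF4 branch median from -0.28 to -0.18. Genes called under neither fit also changed sign, 2 without scaling, 6 with normexp, 5 with quantile normalization and 1 to 3 with an array left out. Apart from the equal shift of all genes without scaling, the cause of these differences was not tested. The SE of the 34 genes ran from 0.06 to 0.19 with 2 arrays per group, and the smallest change called was that of DDIT3 at -0.23.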
